A study of Saccharomyces cerevisiae with 4 samples.

Results

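The spindle position checkpoint genes examined were BFA1, BUB2, KIN4, LTE1, IBD2, DMA1 and SPC72. They were chosen by gene symbol from 16 tables of spindle and mitosis genes, with each gene taken once. All 7 had values in every library, among 130 distinct sets of values in the tables. Poly(A)-selected RNA of 4 strains of the budding yeast *Saccharomyces cerevisiae* was sequenced, with 1 library per genotype. Strain BJ2664 served as wild type (WT), T208 carried mtr3-1, T188 carried mtr4-1, and T186 carried dis3mtr, an allele also named rrp44-1 and mtr17-1. All cultures, WT included, were grown in rich medium (YPD) at 30 °C to an OD600 of 0.4 and then kept at 37 °C for 2 h. MTR3 and DIS3 encode subunits of the RNA exosome, a nuclease complex that shortens or destroys RNA starting at the 3′ end, and MTR4 encodes a helicase that works with the nuclear exosome. Each genotype was a different strain, so strain background and mutation cannot be told apart. There were no replicates, so the error of a difference is unknown and no p-value is given. The values are the authors' normalized values, not counts, so the depth behind them is unknown. MTR3, MTR4 and DIS3 transcripts are not analysed here.

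The spindle position checkpoint delays exit from mitosis in budding yeast when the anaphase spindle fails to enter the bud. It acts on the GTPase Tem1, which starts the mitotic exit network, a kinase cascade that releases the phosphatase Cdc14. Bfa1 and Bub2 form the GTPase-activating complex that holds Tem1 inactive. The kinase Kin4 protects that complex from inhibition by the polo kinase Cdc5, while Lte1, held in the bud, counteracts Kin4. Spc72, a protein of the outer face of the spindle pole body, anchors cytoplasmic microtubules and serves as a docking site for Kin4. Dma1 is a ubiquitin ligase with roles in this checkpoint and in septin organization, and Ibd2 was described as acting with the Bub2 branch.

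BFA1, BUB2, KIN4 and LTE1 were higher in each of the 3 mutant libraries than in WT, and SPC72 was lower in each. BFA1 stood furthest from WT, at between 327% and 480% of the WT value. DMA1 was high in mtr3-1 (246% of WT), less so in dis3mtr (127%), and close to WT or slightly below it in mtr4-1. IBD2 was lower in mtr3-1 and mtr4-1 and close to WT in dis3mtr. The values are of whole cultures. More or fewer cells at a stage of the cell cycle and more or less RNA per cell therefore cannot be told apart. Below, "high" means at least 15% above WT and "low" at least 15% below WT, which are the limits the authors used for increased and decreased genes.

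**Figure D1:**
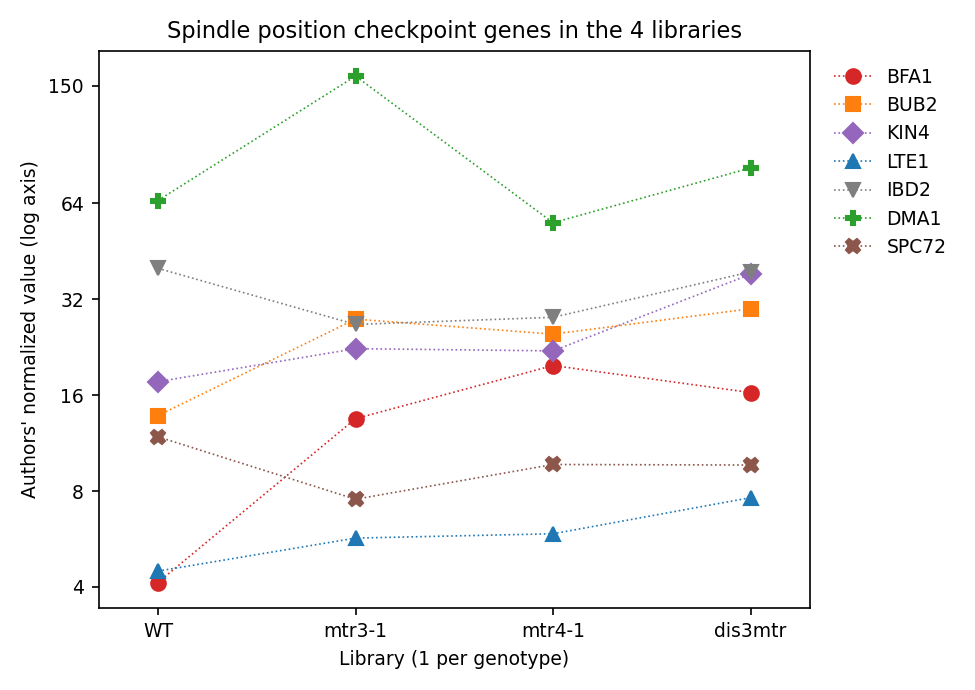
Authors' normalized value (log axis) of the 7 spindle position checkpoint genes in the 4 libraries; each point is 1 library, and dotted lines only join the points of a gene. BFA1 goes from 4.13 in WT to between 13.5 and 19.8 in the mutants, and DMA1 has its highest point, 161, in mtr3-1.

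BFA1 (YJR053W, chromosome 10, 534 to 535 kb, sacCer2), a subunit of the Tem1 inhibitor, had a normalized value of 4.13 in WT, 13.5 in mtr3-1, 19.8 in mtr4-1 and 16.3 in dis3mtr. The mutants were thus all at least 3 times the WT library, with mtr4-1 the highest. As percents of WT these are 327% in mtr3-1, 480% in mtr4-1 and 395% in dis3mtr. From the highest percent down, BFA1 was number 4 of 130 in mtr3-1, number 2 in mtr4-1 and number 6 in dis3mtr. Its WT value was the 4th lowest of the 130, and all 3 percents rest on that value.

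BUB2 (YMR055C, chromosome 13, 385 to 390 kb), the catalytic partner of BFA1, had 13.8 in WT, 27.7 in mtr3-1, 24.9 in mtr4-1 and 29.9 in dis3mtr. The 3 mutant values lay close together, and WT was the lowest library. BUB2 was at 201%, 180% and 217% of WT in mtr3-1, mtr4-1 and dis3mtr. BFA1 differed from WT more than BUB2 did. The ratio of BFA1 to BUB2 within a library, which no scaling of a whole library can alter, was 1.63 times its WT value in mtr3-1, 2.67 times in mtr4-1 and 1.82 times in dis3mtr.

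KIN4 (YOR233W, chromosome 15, 775 to 780 kb), the kinase that keeps the inhibitor active, had 17.6 in WT, 22.4 in mtr3-1, 22.0 in mtr4-1 and 38.4 in dis3mtr. The dis3mtr library stood apart at 217% of WT, and the other two mutants were at 127% and 125%. LTE1 (YAL024C, chromosome 1, 101 to 105 kb), which opposes Kin4, had 4.48 in WT, 5.69 in mtr3-1, 5.87 in mtr4-1 and 7.63 in dis3mtr. LTE1 was thus at 127%, 131% and 170% of WT, with dis3mtr again the highest. Its mean over the libraries was the 4th lowest of the 130. The ratio of KIN4 to LTE1 within a library was 1.00 times its WT value in mtr3-1, 0.95 times in mtr4-1 and 1.28 times in dis3mtr. Transcripts of the kinase and of its opponent therefore kept nearly the WT ratio in mtr3-1 and mtr4-1.

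SPC72 (YAL047C, chromosome 1, 54 to 59 kb), the spindle pole anchor, had 11.8 in WT, 7.54 in mtr3-1, 9.69 in mtr4-1 and 9.65 in dis3mtr. WT was the highest library and mtr3-1 the lowest, at 63.7% of WT. The other two mutants were at 81.8% in mtr4-1 and 81.5% in dis3mtr, just inside the authors' limit for a decrease. After the mtr4-1 library was divided by the median percent of all 130 features, SPC72 was at 100.4% there.

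DMA1 (YHR115C, chromosome 8, 340 to 341 kb) had 65.4 in WT, 161 in mtr3-1, 55.7 in mtr4-1 and 82.7 in dis3mtr. The mtr3-1 library was far above the others, at 246% of WT, against 85.1% in mtr4-1 and 127% in dis3mtr. From the highest percent down, DMA1 was number 6 of 130 in mtr3-1, number 55 in mtr4-1 and number 49 in dis3mtr. DMA2 encodes the closest relative of Dma1. Its values are listed under DMA2 and CTF13 alike, so they are not used here, and the treatment of reads matching several places was not given in the sources used here. IBD2 (YNL164C, chromosome 14, 325 to 326 kb) had 40.0 in WT, 26.7 in mtr3-1, 28.1 in mtr4-1 and 39.0 in dis3mtr. It was at 66.6% and 70.2% of WT in mtr3-1 and mtr4-1, below both other libraries, and at 97.5% in dis3mtr.

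**Figure D2:**
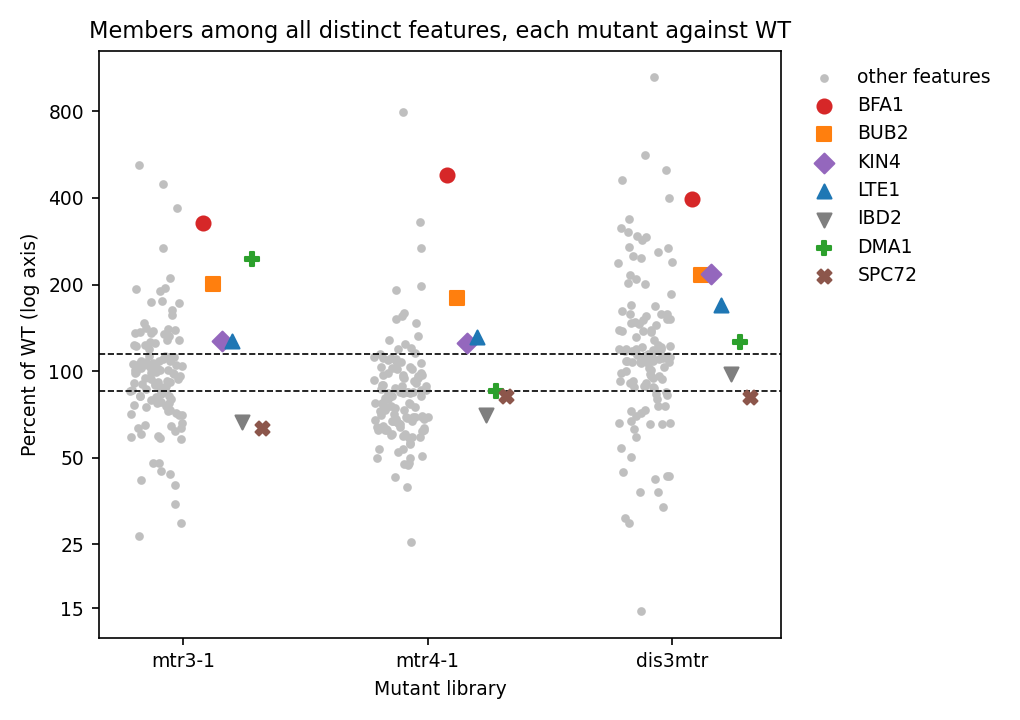
Percent of WT (log axis) in each mutant library for the 7 genes (colored symbols) and for the other features (gray points, spread sideways at random); dashed lines mark 15% above and 15% below WT. BFA1, BUB2, KIN4 and LTE1 lie above the upper line in all 3 mutants, and SPC72 lies below the lower line in all 3.

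In mtr3-1, 5 of the 7 genes were high (BFA1, BUB2, KIN4, LTE1 and DMA1) against 27.7% of all features, and 2 were low (IBD2 and SPC72) against 33.1%. In mtr4-1, 4 were high against 14.6% of all features and 2 were low against 57.7%. In dis3mtr, 5 were high against 46.9% and 1, SPC72, was low against 23.1%. The share of low genes was near or below that of the tables as a whole, and the share of high genes was above it in each mutant. The median of the 7 genes was 127% of WT in mtr3-1, 125% in mtr4-1 and 170% in dis3mtr, beside 99.2%, 81.5% and 112% over all 130 features. High in all 3 mutants were 4 of the 7 genes, against 13.1% of all features, and low in all 3 was 1 gene, against 12.3%. These shared calls all use the same WT library, so they are not independent of each other.

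The percents of each mutant were also divided by their median over the 130 features, called the library median here. These features come from tables of spindle and mitosis genes, so it is not a median of the whole library. After this division BFA1, BUB2, KIN4 and LTE1 were high in all 3 mutants. BFA1 was then at 330%, 589% and 351% of WT in mtr3-1, mtr4-1 and dis3mtr, and BUB2 at 203%, 221% and 193%. KIN4 was at 128%, 153% and 193%, and LTE1 at 128%, 161% and 151%. On this scale 5 genes were high and 2 low in mtr3-1, against 27.7% and 32.3% of all features. In mtr4-1 the numbers were 4 and 0, against 33.1% and 33.8%, and in dis3mtr they were 4 and 1, against 36.2% and 31.5%. DMA1 in dis3mtr was at 113% and no longer high. The authors' scaling of the libraries was not given in the sources used here.

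At stricter limits of 150% and 67% of WT, BFA1 and BUB2 were high in all 3 mutants. In mtr3-1 DMA1 joined them, for 3 high genes and 2 low ones (IBD2 and SPC72), against 12.3% and 16.9% of all features. In mtr4-1 the numbers were 2 and 0, against 7.69% and 26.2%. In dis3mtr KIN4 and LTE1 joined, for 4 high and 0 low, against 28.5% and 14.6%.

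**Figure D3:**
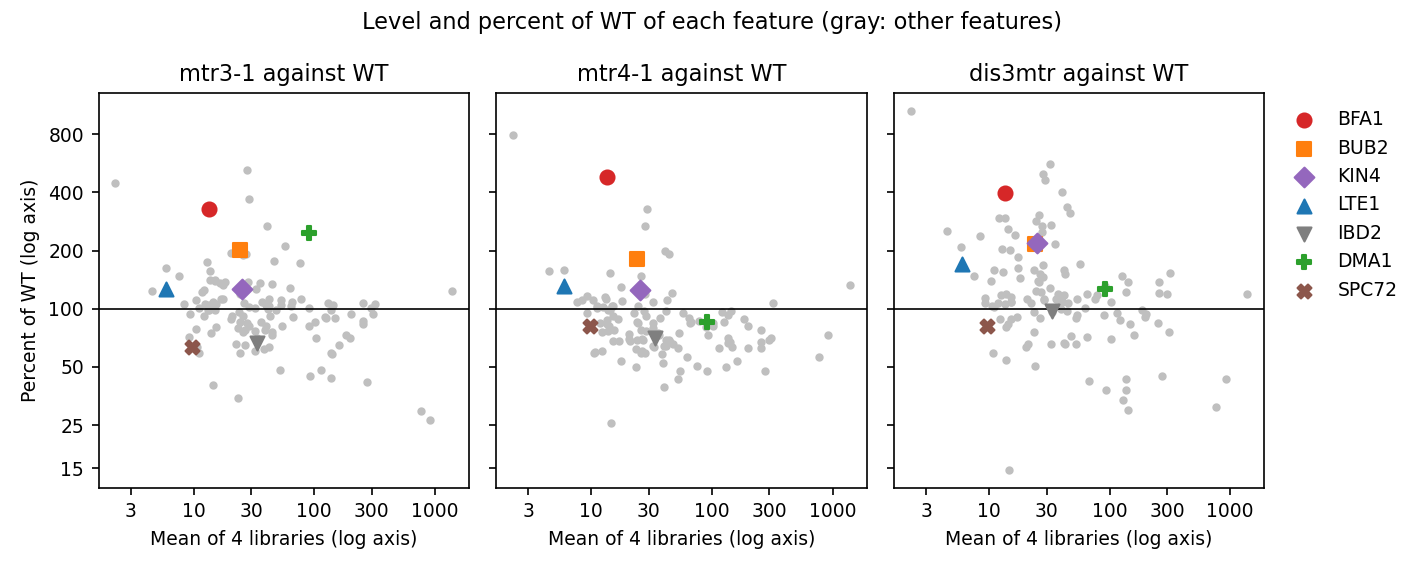
Percent of WT against the mean normalized value over the 4 libraries (both log axes) for each mutant; colored symbols are the 7 genes and gray points the other features. LTE1 and SPC72 are among the 20 features of lowest mean, where the median percent is 106% in mtr3-1, 105% in mtr4-1 and 143% in dis3mtr.

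The median percent was higher at low level in each mutant, at the only cut tried. The 20 features of lowest mean had medians of 106%, 105% and 143% of WT in mtr3-1, mtr4-1 and dis3mtr, and the other 110 had medians of 98.5%, 76.9% and 111%. Of the 20, 8 were high in mtr3-1, 5 in mtr4-1 and 12 in dis3mtr, against 27.7%, 14.6% and 46.9% of all features. LTE1 and SPC72 belong to these 20, and BFA1, with a mean of 13.4, was the next feature above them. The mutant values of BFA1 raise that mean, and by WT value alone it was the 4th lowest of the 130. The features of still lower WT value were a second entry named CDC26, BUB1 and the set listed under KCC4 and CBF2. They were high in each mutant too. LTE1 lay above the median of the 20 in each mutant and SPC72 below it. The part of low level in these percents was not tested.

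The ratio of one gene to another in the same library does not depend on how libraries were scaled. For 15 of the 21 pairs among the 7 genes, the ratio differed from WT in the same direction in all 3 mutants. For 11 pairs it did so by at least 1.5-fold in each mutant, and 5 of these 11 contained BFA1. The rest of the 11 set BUB2, KIN4 or LTE1 against IBD2 or SPC72, so they mostly repeat the calls above. The share over pairs of all features was not computed, so neither count is read as particular to the 7 genes. Relative to SPC72, the inhibitor gene BFA1 was 5.14, 5.87 and 4.84 times its WT ratio in mtr3-1, mtr4-1 and dis3mtr. BUB2 relative to SPC72 was at 3.16, 2.20 and 2.66 times, KIN4 at 1.99, 1.53 and 2.67 times and LTE1 at 1.99, 1.60 and 2.09 times. IBD2 relative to SPC72 stayed between 0.86 and 1.20 times its WT ratio. These ratios use the WT library too, and SPC72 had a mean of 9.68, the 9th lowest of the 130. SPC72 was itself low in each mutant, so ratios above 1 for genes high in each follow from the calls above. Another denominator gave other values. Relative to DMA1 in mtr3-1, BFA1 was at 1.33, BUB2 at 0.82, KIN4 at 0.52 and LTE1 at 0.52 times the WT ratio. In mtr4-1 and dis3mtr each of these genes was above its WT ratio to DMA1.

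**Figure D4:**
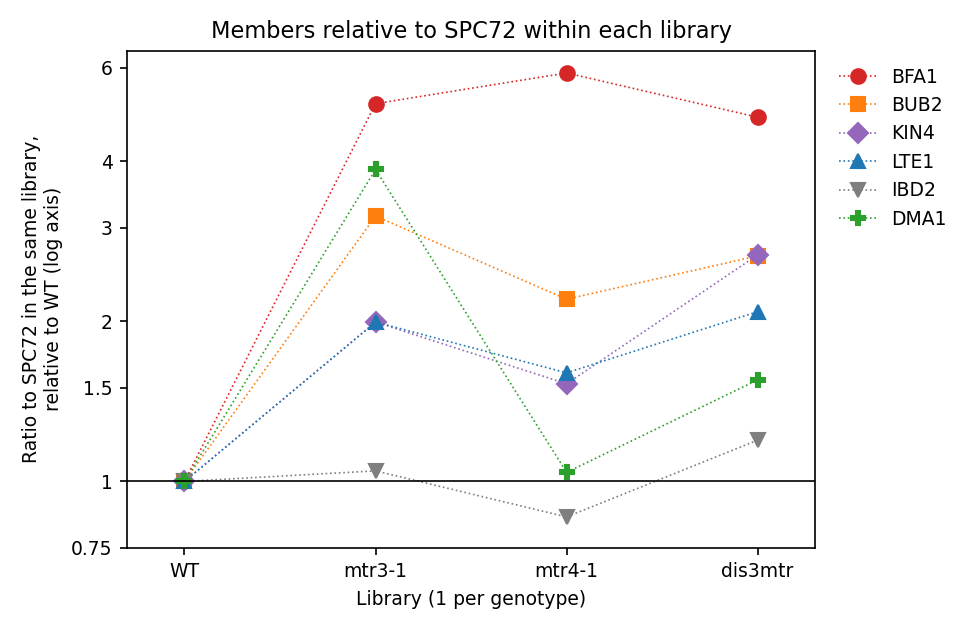
Ratio of each gene to SPC72 in the same library, divided by that ratio in WT (log axis), with 1 point per library; WT is 1 by construction. BFA1 lies near 5 in all 3 mutants, BUB2, KIN4 and LTE1 lie between 1.5 and 3.2, IBD2 stays near 1, and DMA1 reaches 3.86 in mtr3-1 only. SPC72 itself was low in all 3 mutants, which raises these ratios.

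The mutants were also set against each other without WT, as ratios of normalized values given in parentheses. In dis3mtr over mtr3-1 normalized values were at least 15% higher for BFA1 (1.21), KIN4 (1.71), LTE1 (1.34), IBD2 (1.46) and SPC72 (1.28), 5 of the 7 genes against 55.4% of all features. They were at least 15% lower for DMA1 alone (0.51), against 19.2%. In dis3mtr over mtr4-1, 5 genes were at least 15% higher, namely BUB2 (1.20), KIN4 (1.74), LTE1 (1.30), IBD2 (1.39) and DMA1 (1.49), against 74.6%, and BFA1 alone was lower (0.82), against 11.5%. The 5 of 7 are near the share of all features here, since values were mostly higher in dis3mtr. In mtr3-1 over mtr4-1, DMA1 alone was at least 15% higher (2.89), against 53.8%, and BFA1 (0.68) and SPC72 (0.78) were at least 15% lower, against 13.8%.

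Among the 7 genes, KIN4 had the highest ratio of dis3mtr to each of the other mutants, at 1.71 times mtr3-1 and 1.74 times mtr4-1. After division by the median ratio of all features it was still at 1.40 and 1.24 times. BFA1 in mtr3-1 and dis3mtr stood at nearly the same level on that scale, with a ratio of 0.98. DMA1 in mtr3-1 was 2.48 times mtr4-1 after the same division, and its ratio of dis3mtr to mtr3-1 was 0.42.

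Likeness of pattern was measured as the distance between log2 percents of WT over the 3 mutants, which share the WT library. LTE1 had the closest neighbour of the 7 genes. It was SPC105, a kinetochore gene, at a distance of 0.10, with 133%, 129% and 162% of WT in mtr3-1, mtr4-1 and dis3mtr. GAC1, a regulatory subunit gene of the phosphatase Glc7, followed at 0.18. IBD2 was closest to CDC14, the phosphatase gene of mitotic exit, at 0.17, with 70.7%, 63.5% and 95.8% of WT, then to RIO1 at 0.18 and to the myosin gene MYO2 at 0.20. KIN4 was closest to KEL2 at 0.33, LTE1 at 0.36 and CDC16, a gene of the anaphase-promoting complex, at 0.37. SPC72 was closest to the prefoldin gene GIM5 at 0.27, then to IBD2 at 0.35 and GIM3 at 0.36.

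The remaining genes had looser neighbours. BUB2 was closest, at 0.36, to a set of values listed under both KCC4 and CBF2, then to DOC1, a gene of the anaphase-promoting complex, at 0.58 and to ARP1, which encodes the actin-related protein of dynactin, at 0.61. DMA1 was closest to CDC23 at 0.47, with 195%, 69.7% and 113% of WT in mtr3-1, mtr4-1 and dis3mtr, followed by GIC2 at 0.50 and CDC27 at 0.83. BFA1 had no close neighbour: CIN1, a tubulin-folding gene, lay at 0.61, GIC1, an effector of Cdc42, at 1.13 and HSL1, a bud-neck kinase gene, at 1.31.

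Among regulators of Kin4 and Lte1, 6 of 10 listed genes had values. In mtr3-1, 1 of the 6 was high and 0 low, in mtr4-1 0 and 4, and in dis3mtr 4 and 1. For these and the following lists, the shares over all features were 27.7% high and 33.1% low in mtr3-1, 14.6% and 57.7% in mtr4-1, and 46.9% and 23.1% in dis3mtr, so 4 of 6 low in mtr4-1 is near the share of all features. After division by the library median the 6 genes gave 1 high and 0 low in mtr3-1, 0 and 2 in mtr4-1, and 2 and 1 in dis3mtr. On that scale the shares over all features, also for the following lists, were 27.7% high and 32.3% low in mtr3-1. They were 33.1% and 33.8% in mtr4-1, and 36.2% and 31.5% in dis3mtr. RTS1, which encodes the phosphatase 2A regulatory subunit that Kin4 needs to reach the spindle poles, was at 99.0% of WT in mtr3-1, 65.3% in mtr4-1 and 72.6% in dis3mtr. Its percents thus lay below those of KIN4 in each mutant. CLA4, a kinase gene that acts on Lte1 in the bud, was at 136%, 75.0% and 215%, and in mtr4-1 it lay below WT where LTE1 lay above. CDC42, which encodes the GTPase that activates Cla4, was at 101%, 69.2% and 120%. The median of the 6 genes was 106%, 75.2% and 119%, moving to 92.2% in mtr4-1 and 106% in dis3mtr after division by the library median.

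The mitotic exit network that the checkpoint restrains had 6 of 16 listed genes with values, and TEM1 was listed without any. In mtr3-1, 1 gene was high and 2 were low, in mtr4-1 0 and 3, and in dis3mtr 2 and 0. After division by the library median these counts were 1 and 2 in mtr3-1, 3 and 3 in mtr4-1, and 2 and 2 in dis3mtr. CDC15, the kinase gene next in the cascade after TEM1, was at 140% of WT in mtr3-1 and 103% in mtr4-1, and in dis3mtr it was just under the limit for an increase. MOB1, which activates a kinase further down, was at 81.3%, 47.4% and 92.6%. NET1, which holds Cdc14 in the nucleolus, was at 103%, 69.1% and 158%. The median of the 6 was 96.4%, 82.7% and 105%, against 127%, 125% and 170% for the checkpoint genes, and this difference was not tested. After the same division the median of the 6 was 97.2%, 102% and 93.7%.

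The spindle assembly checkpoint, which senses kinetochores without microtubules, had values for all 6 listed genes. In mtr3-1 and mtr4-1, 2 were high and 2 low, and in dis3mtr 2 were high and 1 low. With the library median divided out, 1 was low in mtr4-1, and the other counts were as before. BUB1 and BUB3 were the high genes in each mutant and MAD2 was low in each, at 60.3%, 63.9% and 65.5% of WT in mtr3-1, mtr4-1 and dis3mtr. Genes that move the spindle along cytoplasmic microtubules had 9 of 20 with values. In mtr3-1, 3 were high and 4 low, in mtr4-1 1 and 4, and in dis3mtr 5 and 2. After division by the library median mtr4-1 had 4 high and 3 low, and the other mutants kept their counts. Over all features the shares in mtr4-1 moved likewise, from 14.6% high and 57.7% low to 33.1% and 33.8%. BIM1, a microtubule plus-end gene, was low in each mutant, at 47.9%, 43.1% and 65.9%, while the dynein heavy chain gene DYN1 was at 135%, 88.9% and 240% and ARP1 was high in each. The medians were 105%, 89.4% and 110% for the assembly checkpoint and 91.0%, 88.9% and 158% for the positioning genes. The morphogenesis checkpoint had 3 of 8 with values of certain identity, with 3 high and 0 low in mtr3-1, 2 and 1 in mtr4-1, and 2 and 0 in dis3mtr. The median of these 3 genes was 176% of WT in mtr3-1, 120% in mtr4-1 and 314% in dis3mtr. In mtr3-1 and dis3mtr that is above the median of the 7 spindle position checkpoint genes (127% and 170%). HSL1 and HSL7 were high in all 3 mutants, HSL1 at 267%, 198% and 399% in mtr3-1, mtr4-1 and dis3mtr. MIH1, the phosphatase gene that opposes the kinase Swe1, was at 122% of WT in mtr3-1, 84.2% in mtr4-1, where it was low, and 107% in dis3mtr. With the library median divided out it was at 103% in mtr4-1 and no longer low. Of 15 listed spindle pole body genes, CMD1 and SFI1 had values, and both were below WT in each mutant, also after division by the library median.

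**Figure D5:**
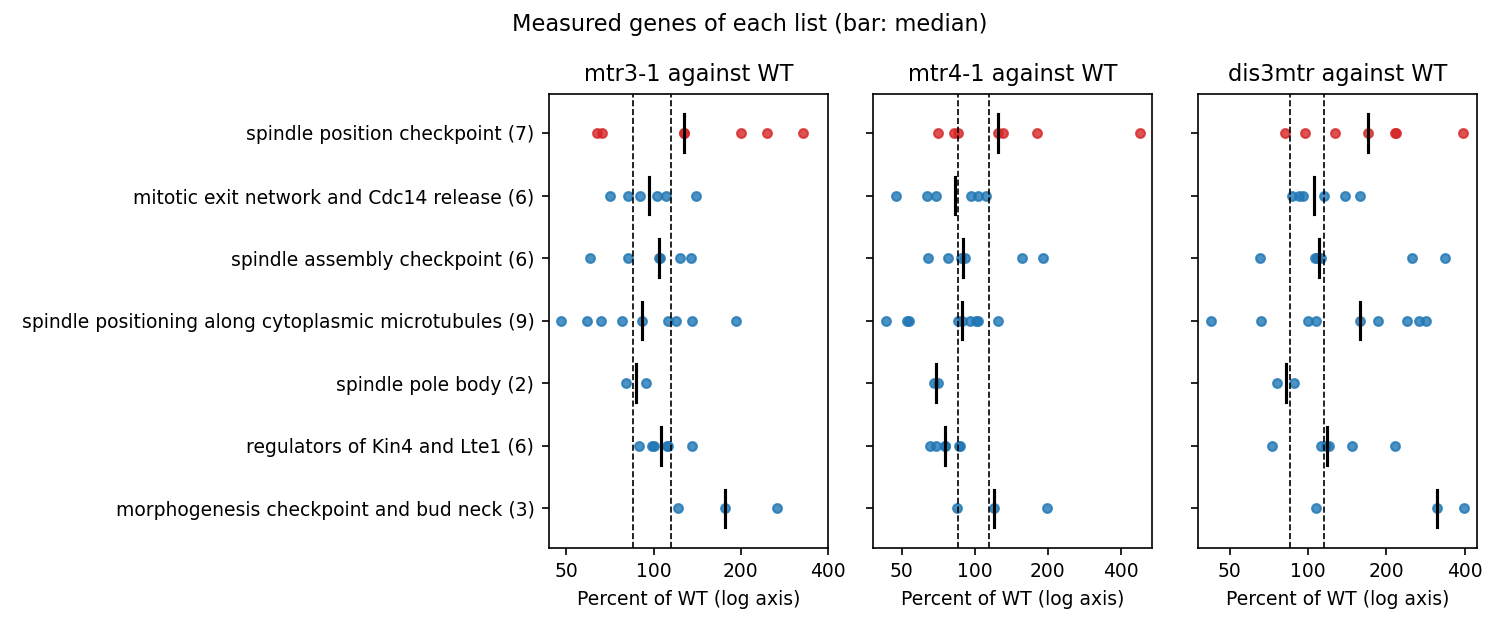
Percent of WT (log axis) for the 7 genes (red) and for the measured genes of 6 related lists (blue), with the number of genes in parentheses, a black bar at each median and dashed lines 15% above and below WT. In mtr4-1 the median of the 7 genes is 125% (105% without BFA1), and that of the 6 mitotic exit network genes is 82.7%. That of the 3 morphogenesis checkpoint genes is 120%. The median over all 130 features there is 81.5%.

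The authors' table for the spindle orientation checkpoint holds BFA1, BUB2, KIN4, LTE1 and SPC72 with RTS1, and leaves out DMA1 and IBD2. The authors' deposited table counts 4 increased genes in each mutant, and 1, 2 and 2 decreased genes in mtr3-1, mtr4-1 and dis3mtr. It lists BFA1, BUB2, KIN4 and SPC72 with spans of 5 kb, although their coding sequences in the R64 annotation measure 1.73, 0.92, 2.40 and 1.87 kb. The next coding genes in R64 are RAD7 and KCH1 beside BFA1, and STV1 and AAC1 beside BUB2. Beside KIN4 they are MGE1 and the ribosomal protein gene RPL33B, and beside SPC72 they are GEM1 and BOL3. In another table BFA1 is listed with a span of 1 kb and the same values in every library. The same values under both spans do not show over which span the reads of BFA1 were counted. Whether reads of neighbouring genes entered the values of BFA1, BUB2, KIN4 and SPC72 was not tested.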

How the data were processed

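Per the labels' protocols, each poly(A)-selected library carried a barcode of 3 bases, and all 4 shared 1 lane of an Illumina GAIIx (36 cycles). Bowtie and the build sacCer2 are listed, with no further detail, per the submitters' processing notes. Per the file headers, the deposited values are the authors' normalized numerical values (a score of unstated scaling) and the percent of WT. Neither the normalization nor read assignment is given in the sources used here. Within the range of depths tried, values times R64 coding length gave none at which more than 19.4% came out as whole reads (tolerance 0.03). Other lengths, such as the listed spans, and other depths were not tried, so depth and counting error are unknown.

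The 190 entries held 175 with values and 130 distinct sets of values, which were each counted once. Of these sets, 9 had an uncertain identity and stayed out of the related lists. They had no R64 entry, a listed position away from that in R64 (tolerance 1 kb), or values listed under more than 1 gene. All 7 genes were certain, and no other R64 coding gene overlaps them. Printed positions are the authors' (sacCer2). Recomputed percents equalled the deposited ones within 1e-13. Members and lists were chosen with earlier results of these data known. All 7 genes, genes of the 6 lists and the 3 nearest patterns per gene were named. Alternatives were division by the library median, a pseudocount of 1, limits of 150% and 67%, and a mean level of at least 10; rounding and the removal of BFA1 with LTE1 were added after seeing the data. A planned promoter motif search was not run, since neither promoter sequences nor a genome of the authors' build were at hand. Simulated data without noise, with planted changes well past the limits, served only to check the code of the calls and distances (Python 3.11.15, pandas 2.3.3, NumPy 2.4.6). They do not measure the error of a single library.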

Additional observations from a re-analysis of the deposited data

Results flagged for a closer look

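DMA1 was on opposite sides of WT in different mutants. It was at 246% of WT in mtr3-1 and 127% in dis3mtr, but at 85.1% in mtr4-1. With 1 library per genotype the difference was not tested. After division by the library median it was at 104% in mtr4-1 and 113% in dis3mtr, both between the limits, and at 248% in mtr3-1.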

How the results depend on the processing

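A pseudocount of 1 left every percent, count, median and mutant ratio of the 7 genes on its side of the limits. Division by the library median (99.2% in mtr3-1, 81.5% in mtr4-1 and 112% in dis3mtr) moved several. In mtr4-1, SPC72 went to 100.4% of WT and IBD2 to 86.1%, so 0 genes were low, and DMA1 in dis3mtr went to 113%. With the median ratio divided out, dis3mtr over mtr3-1 was 0.98 for BFA1, 1.09 for LTE1 and 1.04 for SPC72. Dis3mtr over mtr4-1 was 0.86 for BUB2, 0.93 for LTE1, 0.99 for IBD2, 1.06 for DMA1 and 0.71 for SPC72, and mtr3-1 over mtr4-1 was 0.83 for LTE1 and 0.81 for IBD2. The median of the mitotic exit network in mtr4-1 went from 82.7% to 102%. At 150% and 67%, 3 genes were high in mtr3-1 and 2 in mtr4-1, and 0 were low in mtr4-1 and dis3mtr. Without genes of mean level under 10 (LTE1 and SPC72), 1 gene was low in mtr3-1, 1 in mtr4-1 and 0 in dis3mtr, and the median in mtr3-1 was 201%. Without BFA1 the median in mtr4-1 was 105%. Without BFA1 and LTE1, 3 of 5 genes were high in mtr3-1, 2 in mtr4-1 and 3 in dis3mtr. With percents rounded to whole numbers, DMA1 in mtr4-1 was at 85% and so low. No paired analysis was possible because there is 1 library per genotype and no test.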
